A study of Mus musculus with 22 samples.

Results

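The transcripts of 10 lysosomal genes were followed in RNA of the entire brain from 22 male C57BL/6J mice of old age: 7 cathepsins (Ctsa, Ctsb, Ctsc, Ctsd, Ctsh, Ctsl and Ctsz) and 3 lysosomal membrane glycoproteins (Cd68, Lamp1 and Lamp2). They were the 10 rows with these symbols among the 56748 genes of the deposited count table, and all 10 were among the 20026 genes abundant enough to be tested. At 10 weeks of age the mice labelled GW, which model Gulf War Illness, had been injected with 0.7 mg/kg pyridostigmine bromide (an acetylcholinesterase inhibitor) and 200 mg/kg permethrin (a pyrethroid insecticide), daily for 10 days, and the mice labelled Ctrl had received the vehicle. All mice were then aged to 17.5 months. Lipopolysaccharide (LPS, a bacterial cell-wall component that provokes systemic inflammation) was injected once at 0.33 mg/kg, with PBS as its control, and brains were taken 24 h later.

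The exposed mice given cannabidiol (CBD) were GWCBD30LPS (4 mice, with LPS) and GWCBD30 (4 mice, with PBS); they had 30 mg/kg daily for 28 days and then every other day for 2 weeks. The exposed mice given the CBD vehicle were GWVehLPS (4 mice) and GWVeh (4 mice). The unexposed mice, also given the CBD vehicle, were CtrlVehLPS (3 mice) and CtrlVeh (3 mice). Unexposed mice given CBD are not among these groups, so any CBD effect given here is an effect in exposed mice. The tissue was the whole brain, and in such bulk RNA more cells of a type and more RNA per cell cannot be told apart.

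Lysosomes are acidic organelles in which proteins delivered by endocytosis, phagocytosis and autophagy are broken down. Cathepsins are the proteases that do this work, and they fall into cysteine, aspartic and serine classes, while heavily glycosylated membrane proteins such as Lamp1 and Lamp2 line the organelle. In the brain, microglia, the resident macrophages, are rich in lysosomes, and several cathepsins are more abundant in microglia than in neurons. Many lysosomal genes are regulated by the transcription factor TFEB and its relatives, which bind E-boxes with the core CACGTG, and many genes of macrophages by PU.1, which binds purine-rich sites with the core GAGGAA.

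Promoter sequences illustrate how these regulatory letters are spread over the family. RefSeq promoters for GRCm38.p6, from 250 bases before to 50 bases after a start site, were found for 8 of the 10 genes; Ctsb and Ctsh had no entry. Both strands were searched for CACGTG, its longer form TCACGTGA (which contains it), GAGGAA and its longer form GAGGAAGT (which contains it). Of 32544 promoters of the same length, 7.17% held CACGTG, 0.983% TCACGTGA, 28.1% GAGGAA and 3.11% GAGGAAGT. Shown are the 3 sequences with the most matches to CACGTG and the 1 with a match to GAGGAAGT, written 5′ to 3′ on the strand of the gene with the core letters in capitals (TTCCTC is GAGGAA on the opposite strand).
Lamp1 (chr8:13158911-13159210, plus strand): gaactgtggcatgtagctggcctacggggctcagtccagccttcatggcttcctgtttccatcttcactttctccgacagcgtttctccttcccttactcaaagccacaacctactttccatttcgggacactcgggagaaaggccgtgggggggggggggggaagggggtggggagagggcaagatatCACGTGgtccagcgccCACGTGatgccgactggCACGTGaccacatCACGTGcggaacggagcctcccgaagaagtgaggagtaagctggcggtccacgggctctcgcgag
Ctsa, downstream start (chr2:164833523-164833822, plus strand): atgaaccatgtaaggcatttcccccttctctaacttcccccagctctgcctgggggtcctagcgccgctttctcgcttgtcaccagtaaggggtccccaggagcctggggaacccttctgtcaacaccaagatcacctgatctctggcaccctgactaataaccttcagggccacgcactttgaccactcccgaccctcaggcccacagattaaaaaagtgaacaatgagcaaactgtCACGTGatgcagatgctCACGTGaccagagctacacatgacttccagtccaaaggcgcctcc
Ctsd (chr7:142387778-142388077, minus strand): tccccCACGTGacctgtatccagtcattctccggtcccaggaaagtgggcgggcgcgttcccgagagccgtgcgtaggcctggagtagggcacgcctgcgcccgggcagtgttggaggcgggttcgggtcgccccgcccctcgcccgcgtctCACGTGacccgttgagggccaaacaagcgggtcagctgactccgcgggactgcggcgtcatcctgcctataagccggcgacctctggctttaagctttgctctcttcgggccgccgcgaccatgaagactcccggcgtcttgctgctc
Ctsc (chr7:88277835-88278134, plus strand): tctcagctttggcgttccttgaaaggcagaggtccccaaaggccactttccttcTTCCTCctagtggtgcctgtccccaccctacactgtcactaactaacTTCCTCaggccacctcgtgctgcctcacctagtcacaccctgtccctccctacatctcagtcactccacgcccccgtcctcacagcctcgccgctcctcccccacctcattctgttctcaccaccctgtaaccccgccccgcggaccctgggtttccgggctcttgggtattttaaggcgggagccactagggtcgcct
Lamp1 held 4 copies of CACGTG, between 61 and 15 bases before its start. The downstream start of Ctsa held 2 copies, both within TCACGTGA, and Ctsd held 2, of which 1 lay within TCACGTGA. Ctsl had 1 copy, and Ctsc, Ctsz, Cd68, Lamp2 and the upstream start of Ctsa had none in this window. Ctsc held 2 copies of GAGGAA, 1 of them within GAGGAAGT, Cd68 held 2 copies and Lamp2 held 1. These are matches of letters, and binding was not measured.

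The libraries held between 17.2 and 31.2 M counts, with a median of 21.6 M, and each of the 10 genes had between 85 and 19597 counts in every library. Neuronal, astrocytic and oligodendrocyte markers were present in all 22 libraries at 42.9 CPM (counts per 1000000 counts of the library, scaled by TMM factors) or more. CtrlVehLPS replicate 1 stood apart: its 8 cerebellar neuron markers summed to 881 CPM, against 2147 and 2208 CPM in the other CtrlVehLPS brains, and its 10 pancreatic enzyme markers to 306 CPM, against 3.83 and 3.80 CPM. GWVehLPS replicate 2 also stood apart: its counts differed from those of its group mates by a chi-square per gene of 13.2 to 16.7, against 5.34 to 8.12 among the other GWVehLPS brains. It had the highest mitochondrial share (5.04%) and the lowest TMM factor (0.969) of the 22 libraries, and the highest value of its group for 8 of the 10 genes. Olfactory bulb markers varied too, from 156 to 259 CPM in CtrlVehLPS brains and from 108 to 119 CPM in CtrlVeh brains. The tests were also run with bulb and cerebellar scores as covariates and without each library, and changes in calls are given beside the results. Bulb markers did not overlap between CtrlVehLPS and CtrlVeh brains, so in controls the covariates cannot separate tissue from LPS. The labels do not say that replicates share a litter or batch. In the main model a p-value sets a difference against the spread between brains, estimated over all 22 libraries together.

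Levels were set side by side per kilobase of exon, with the length taken as the union of all annotated exons of a gene. This union ran from 1257 bases (Cd68) to 9552 bases (Lamp2). It gives too low a level where the transcripts present are shorter than the union, so the order below depends on it. Which transcripts were present was not tested. Lamp1 was highest, with a median of 119 CPM per kb over the 22 libraries, and was followed by Ctsb at 103 and Ctsd at 88.7 CPM per kb. Ctsz (26.9), Ctsa (20.8), Ctsl (12), Lamp2 (10.3) and Cd68 (5.58) came next, and Ctsh (1.72) and Ctsc (1.23 CPM per kb) were lowest. Ranges over libraries overlapped between neighbours in this order except between Ctsd and Ctsz, Ctsa and Ctsl, and Cd68 and Ctsh. Across the 6 groups, the highest mean CPM was in GWVehLPS for 9 of the 10 genes, and Lamp2 was highest in CtrlVeh. For 7 of the 9 genes the range of GWVehLPS overlapped that of the next group, and Ctsa and Ctsz were apart. Without GWVehLPS replicate 2 the highest mean was in GWVehLPS for 7 genes, that of Ctsl being in CtrlVehLPS and that of Lamp1 in GWCBD30LPS.

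**Figure D1:**
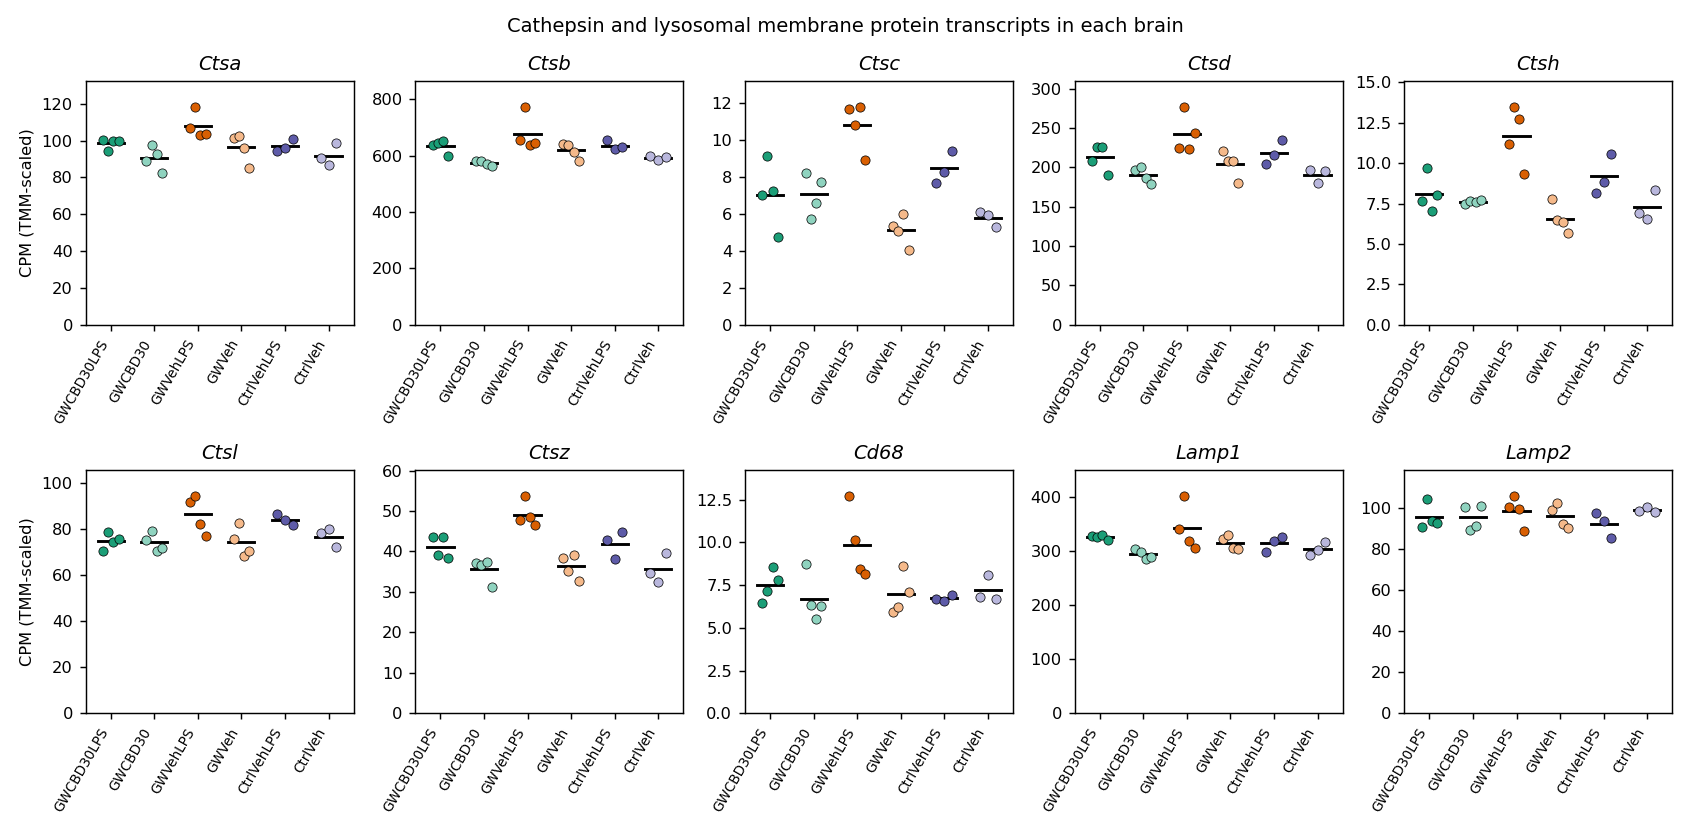
Level of each of the 10 genes in every brain, in TMM-scaled CPM on linear axes that start at 0; each point is 1 brain, bars are group means, and each LPS group stands left of its PBS group. GWVehLPS has the highest mean for 9 genes, and the Ctsc values of GWVehLPS (8.91 to 11.8 CPM) lie above all GWVeh values (4.07 to 6.01 CPM).

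LPS was followed by higher transcript levels of 5 of the 10 genes when the 3 arms were averaged with equal weight, and none was lower. The cysteine cathepsins Ctsc, Ctsh, Ctsz and Ctsb and the aspartic protease Ctsd rose, by 1.46-fold, 1.33-fold, 1.22-fold, 1.09-fold and 1.15-fold. Over all 20026 genes tested, 3.52% passed the same test (2.49% higher and 1.03% lower; edgeR quasi-likelihood test, Benjamini-Hochberg adjusted p under 0.05). The median log2 fold change was 0.16 for the 10 genes and -0.01 for all genes tested. Taken by arm, 3 genes passed the test in exposed vehicle mice (0.829% of all genes rose there), and none passed in exposed CBD mice or in controls; tests of the differences between arms are given with the interactions.

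Ctsc encodes dipeptidyl peptidase I, which removes dipeptides from the N terminus of proteins and activates granule serine proteases. Its level was 7.02, 9.14, 7.22 and 4.72 CPM in GWCBD30LPS brains, against 8.22, 5.73, 6.56 and 7.74 CPM in GWCBD30 brains. It was 11.7, 10.8, 11.8 and 8.91 CPM in GWVehLPS brains, against 5.33, 5.07, 6.01 and 4.07 CPM in GWVeh brains. It was 7.69, 8.27 and 9.42 CPM in CtrlVehLPS brains, against 6.09, 5.95 and 5.28 CPM in CtrlVeh brains. The LPS and PBS groups thus overlapped in the CBD arm and were apart in the other arms, and in the CBD arm the lowest of the 8 values was that of an LPS brain. Ctsc rose 2.11-fold in exposed vehicle mice (log2 fold change 1.08 ± 0.16 SE, adjusted p = 0.000101, edgeR), and in the mean of the 3 arms (0.54 ± 0.10, adjusted p = 0.000716). Its log2 fold change was 0.55 ± 0.18 in controls (adjusted p = 0.185) and -0.00 ± 0.16 in the CBD arm (95% interval -0.32 to 0.32, adjusted p = 0.996).

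Ctsh, a cysteine protease with aminopeptidase activity, had a similar course. Its level was 7.67, 9.68, 7.07 and 8.0 CPM in GWCBD30LPS brains, against 7.46, 7.67, 7.61 and 7.74 CPM in GWCBD30 brains. It was 11.2, 13.5, 12.7 and 9.34 CPM in GWVehLPS brains, against 7.76, 6.48, 6.34 and 5.69 CPM in GWVeh brains. It was 8.17, 8.83 and 10.6 CPM in CtrlVehLPS brains, against 6.94, 6.55 and 8.34 CPM in CtrlVeh brains. Every LPS brain lay above every PBS brain in exposed vehicle mice, and the groups overlapped in the CBD arm and in controls. Ctsh rose 1.78-fold there (log2 fold change 0.83 ± 0.13, adjusted p = 0.000317), and its values were 0.33 ± 0.16 in controls (adjusted p = 0.391) and 0.08 ± 0.13 in the CBD arm (adjusted p = 0.901). In the mean of the arms the value was 0.41 ± 0.08 (adjusted p = 0.00198), and with bulb and cerebellar scores as covariates it did not pass (0.36 ± 0.11, adjusted p = 0.0722).

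Ctsz, a carboxypeptidase also called cathepsin X, was at 43.6, 39.0, 43.5 and 38.4 CPM in GWCBD30LPS brains, against 37.2, 36.7, 37.5 and 31.2 CPM in GWCBD30 brains. It was at 47.7, 53.7, 48.4 and 46.6 CPM in GWVehLPS brains, against 38.5, 35.3, 39.2 and 32.7 CPM in GWVeh brains. It was at 42.7, 38.1 and 44.7 CPM in CtrlVehLPS brains, against 34.6, 32.5 and 39.5 CPM in CtrlVeh brains. The groups did not overlap in either exposed arm, and overlapped in 1 value of each control group. Ctsz rose in exposed vehicle mice (0.43 ± 0.08, adjusted p = 0.00181) and in the mean of the arms (0.29 ± 0.05, adjusted p = 0.000345). It had a log2 fold change of 0.23 ± 0.09 in controls (adjusted p = 0.285) and 0.21 ± 0.08 in the CBD arm (adjusted p = 0.497).

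Ctsd and Ctsb, the abundant endopeptidases of the lysosome, moved by less. Ctsd, whose loss causes a neuronal ceroid lipofuscinosis, was at 209, 226, 226 and 190.1 CPM in GWCBD30LPS brains, against 196, 201, 187 and 179 CPM in GWCBD30 brains. It was at 225, 277, 224 and 244 CPM in GWVehLPS brains, against 220.4, 209, 208 and 180.3 CPM in GWVeh brains, and at 205, 216 and 235 CPM in CtrlVehLPS brains, against 197, 180.0 and 195 CPM in CtrlVeh brains. The LPS and PBS groups overlapped in the CBD arm and were apart in the other arms, in each of which LPS was higher. Ctsd had a log2 fold change of 0.20 ± 0.04 in the mean of the arms (adjusted p = 0.00504), and of 0.25 ± 0.07, 0.20 ± 0.08 and 0.16 ± 0.07 in exposed vehicle, control and CBD mice (adjusted p = 0.0962, 0.314 and 0.565).

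Ctsb, a cysteine endopeptidase that also acts as a peptidyl dipeptidase, was at 636, 645, 653 and 599.9 CPM in GWCBD30LPS brains, against 582, 580.0, 571 and 561 CPM in GWCBD30 brains. It was at 655, 772, 638 and 646 CPM in GWVehLPS brains, against 639.8, 638, 614 and 582 CPM in GWVeh brains, and at 655, 624 and 629 CPM in CtrlVehLPS brains, against 597, 583 and 595 CPM in CtrlVeh brains. It was higher in every LPS brain of the CBD and control arms, and GWVehLPS replicate 2 was the highest of all. Its log2 fold changes were nearly equal in size in the CBD, exposed vehicle and control arms (0.14 ± 0.06, 0.13 ± 0.06 and 0.10 ± 0.06), and none passed alone (adjusted p = 0.505, 0.370 and 0.544). Averaged over the arms it rose by 0.13 ± 0.03 on the log2 scale (adjusted p = 0.0300). This call was lost with bulb and cerebellar covariates (0.12 ± 0.05, adjusted p = 0.210). It was also lost without GWVeh replicate 4, any CtrlVeh brain or GWCBD30LPS replicate 3 (adjusted p between 0.0506 and 0.0741).

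The other 5 genes did not pass in the mean of the arms. Ctsa, the serine carboxypeptidase that also stabilises lysosomal beta-galactosidase and neuraminidase, had a log2 fold change of 0.12 ± 0.04 (adjusted p = 0.0800), and the cysteine endopeptidase Ctsl one of 0.12 ± 0.04 (adjusted p = 0.0931). Lamp1, an abundant protein of the lysosomal membrane, had 0.10 ± 0.04 (adjusted p = 0.120). Lamp2, a related protein with an isoform that takes part in chaperone-mediated autophagy, had -0.02 ± 0.04 (95% interval -0.10 to 0.06, adjusted p = 0.823), so a rise of the size seen for Ctsd lay outside its interval. Ctsa passed with DESeq2 (adjusted p = 0.0429), and Ctsl with a replicate block or without GWVehLPS replicate 4 (adjusted p = 0.0429 and 0.0452).

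Cd68, the macrosialin of macrophage lysosomes, had a log2 fold change of 0.19 ± 0.09 in the mean of the arms (adjusted p = 0.296). It was at 6.47, 7.13, 8.56 and 7.78 CPM in GWCBD30LPS brains, against 8.72, 6.33, 5.55 and 6.28 CPM in GWCBD30 brains. It was at 12.7, 10.2, 8.46 and 8.16 CPM in GWVehLPS brains, against 5.92, 6.23, 8.62 and 7.13 CPM in GWVeh brains. It was at 6.69, 6.58 and 6.91 CPM in CtrlVehLPS brains, against 6.83, 8.07 and 6.71 CPM in CtrlVeh brains. The LPS and PBS groups overlapped in every arm. Its log2 fold change was 0.51 ± 0.15 in exposed vehicle mice (adjusted p = 0.116) and -0.10 ± 0.18 in controls (adjusted p = 0.870).

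**Figure D2:**
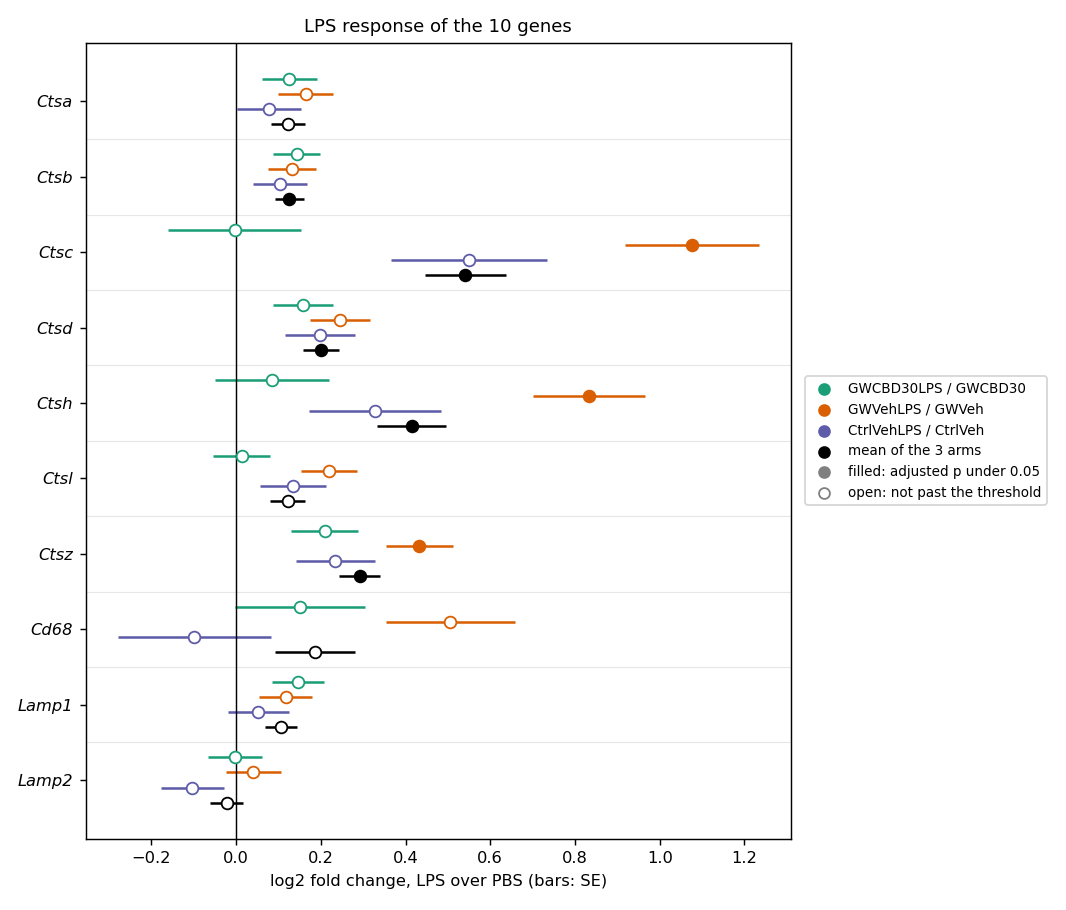
Log2 fold change of LPS over PBS for each gene in the CBD arm, the exposed vehicle arm, the controls and their mean, with bars of 1 SE. Filled points passed an adjusted p of 0.05: 5 genes in the mean and Ctsc, Ctsh and Ctsz in exposed vehicle mice, where all 10 values are above 0.

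By arm, 3 of the 10 genes passed in exposed vehicle mice, against 0.939% of all genes tested, and all 10 had positive values with a median of 0.23 (Lamp2 was slightly below 0 with limma voom). Without GWVehLPS replicate 2, Ctsc, Ctsh and Ctsz passed at 1.08, 0.76 and 0.39 (adjusted p = 0.000314, 0.00192 and 0.00919). In 5 of them (Ctsa, Ctsc, Ctsd, Ctsh and Ctsz) every GWVehLPS brain lay above every GWVeh brain, as did 3.5% of all genes. In controls 0 of the 10 passed (background 0.494%), and DESeq2 and limma voom called none either. An unadjusted p under 0.05 was reached in controls by 4 of the 10 and by 12.2% of all genes. There Ctsb, Ctsc, Ctsd and Ctsl were higher in every CtrlVehLPS brain (9.2% of all genes were) and Lamp2 lower in every one (8.13%). Without CtrlVehLPS replicate 1 the control values of Ctsc, Ctsh, Ctsd and Ctsz were 0.62, 0.41, 0.24 and 0.22. With it they were 0.55, 0.33, 0.20 and 0.23. In the CBD arm 0 passed (background 0.00499%, 1 gene), and DESeq2 and limma voom again called none. There 4 of the 10 had an unadjusted p under 0.05, against 8.22% of all genes. Ctsb, Ctsz and Lamp1 were higher in every GWCBD30LPS brain than in any GWCBD30 brain, as were 3.39% of all genes.

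The genes with the largest LPS values in exposed vehicle mice were the scarcest ones per kilobase of the exon union. By average log2 CPM, without exon length, Ctsc (2.91), Cd68 (2.94) and Ctsh (3.09) were the lowest, and Cd68 had a log2 fold change of 0.51 ± 0.15. Ctsc and Ctsh had the lowest levels per kilobase and log2 fold changes of 1.08 and 0.83. Lamp1 and Ctsb, the most abundant per kilobase, had log2 fold changes of 0.12 ± 0.06 and 0.13 ± 0.06. Lamp2, of intermediate level, had the smallest value (0.04 ± 0.06, adjusted p = 0.895). The biological coefficient of variation was 0.139 for Ctsc, 0.138 for Cd68 and 0.117 for Ctsh, and 0.0628 to 0.0789 for the other 7, so the scarce genes also varied more between brains.

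**Figure D3:**
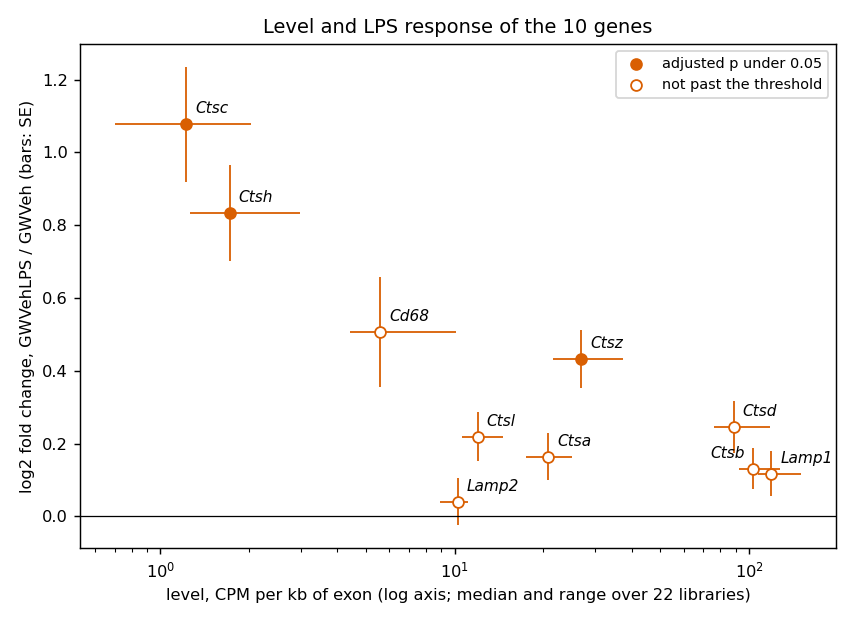
Level of each gene over the 22 libraries in CPM per kb of exon, by the union of its annotated exons (log axis, point at the median and bar over the range), against its log2 fold change in GWVehLPS over GWVeh brains (bar of 1 SE). Ctsc and Ctsh, the filled points at upper left, had the lowest levels and the largest values, and Ctsz is the other filled point, past an adjusted p of 0.05.

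The exposure itself was compared in vehicle-treated mice. Without LPS, 0 of the 10 genes and 0% of all genes passed (GWVeh against CtrlVeh), and the log2 fold changes ran from -0.17 (Ctsc) to 0.10 (Ctsd). An unadjusted p under 0.05 was found for 0 of the 10 and for 8.8% of all genes. Under LPS all 10 genes had positive values in GWVehLPS against CtrlVehLPS, with a median of 0.15 against 0.00 for all genes. Of the 10, 0 passed (background 0.00499%, 0 with DESeq2 or limma voom). In this comparison 5 of the 10 had an unadjusted p under 0.05, against 7.73% of all genes. Cd68 had the largest value (0.56 ± 0.17, adjusted p = 0.410) and was higher in every GWVehLPS brain than in any CtrlVehLPS brain, as were Ctsa and Ctsz. Of all genes 2.84% had that order. Ctsc had 0.36 ± 0.17 (adjusted p = 0.628) and Ctsh 0.35 ± 0.14 (adjusted p = 0.540). Without CtrlVehLPS replicate 1 the values of Cd68, Ctsc and Ctsh were 0.56, 0.29 and 0.27, and 0 of the 10 passed. Without GWVehLPS replicate 2 the value of Ctsl was -0.01, so 9 of the 10 were positive, and Ctsh had 0.28. Microglia markers summed to 258 to 342 CPM in GWVehLPS brains and to 289 to 296 CPM in CtrlVehLPS brains.

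CBD was compared with its vehicle in exposed mice. Under LPS all 10 genes had negative values in GWCBD30LPS against GWVehLPS brains, with a median of -0.20 against 0.00 for all genes, and 0 passed (background 0.24%). An unadjusted p under 0.05 was found for 6 of the 10 and for 7.1% of all genes. Ctsh had a log2 fold change of -0.53 ± 0.13 (adjusted p = 0.0818) and Ctsc one of -0.62 ± 0.15 (adjusted p = 0.0918). DESeq2 called Ctsh (adjusted p = 0.0355), and limma voom called Ctsh (adjusted p = 0.0152) and Ctsc (adjusted p = 0.0131). With bulb and cerebellar covariates Ctsc passed (adjusted p = 0.0381), which it did not in the main model. Without GWCBD30LPS replicate 2, the brain with the highest Ctsc and Ctsh of its group, both passed (adjusted p = 0.0258 for Ctsc and 0.0424 for Ctsh), and without GWVehLPS replicate 4, the lowest of its group for both, Ctsh passed (adjusted p = 0.0341).

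Ctsa and Ctsz were lower in every GWCBD30LPS brain than in any GWVehLPS brain, an order shared by 2.5% of all genes. Ctsz averaged 41.1 ± 2.80 CPM in GWCBD30LPS brains and 49.1 ± 3.18 CPM in GWVehLPS brains (SD, n = 4 each; -0.25 ± 0.08 on the log2 scale, adjusted p = 0.275). Ctsa averaged 98.5 ± 2.88 CPM in GWCBD30LPS brains and 108 ± 7.02 CPM in GWVehLPS brains (SD, n = 4 each; -0.13 ± 0.06, adjusted p = 0.707). Cd68 (-0.41 ± 0.15, adjusted p = 0.437), Ctsl (-0.21 ± 0.07, adjusted p = 0.306) and Ctsd (-0.19 ± 0.07, adjusted p = 0.468) came next, and Ctsb, Lamp1 and Lamp2 had values between -0.10 and -0.05. Without GWVehLPS replicate 2, 9 of the 10 were negative, with Lamp1 at 0.02, Ctsh at -0.46 (adjusted p = 0.207) and Ctsc at -0.62 (adjusted p = 0.133).

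Without LPS Ctsc had the largest CBD value, followed by Ctsh (0.22 ± 0.14, adjusted p = 0.776). Of the 10 genes 0 passed, as did 0% of all genes (0 of the 10 with DESeq2 or limma voom). An unadjusted p under 0.05 was found for 1 of the 10 and for 6.43% of all genes. Ctsc averaged 7.06 ± 1.13 CPM in GWCBD30 brains and 5.12 ± 0.805 CPM in GWVeh brains (SD, n = 4 each), with overlapping values and a log2 fold change of 0.46 ± 0.16 (adjusted p = 0.752). Ctsb was lower in every GWCBD30 brain than in any GWVeh brain (-0.11 ± 0.06, adjusted p = 0.752), an order that 1.7% of all genes had. The values of 8 of the 10 genes were negative, with a median of -0.04.

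**Figure D4:**
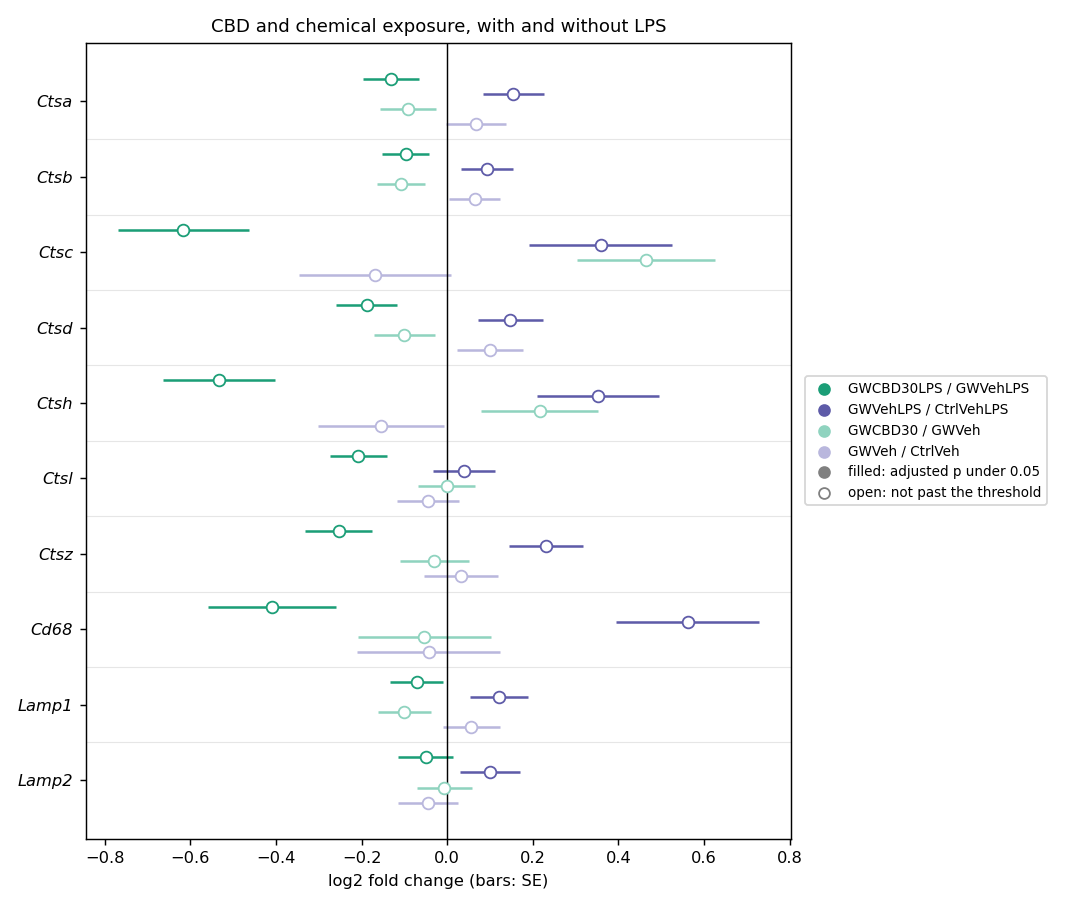
Log2 fold change (bars of 1 SE) of each gene for CBD under LPS, exposure under LPS, CBD without LPS and exposure without LPS. All points are open, since none passed an adjusted p of 0.05; under LPS all 10 CBD values lie below 0 and all 10 exposure values above 0, and both comparisons hold the same GWVehLPS brains (9 of 10 in each without GWVehLPS replicate 2).

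The exposed CBD mice were also set against unexposed controls. Without LPS 0 of the 10 genes passed (0% of all genes), with Ctsc at 0.30 ± 0.17 and the others between -0.10 and 0.06. An unadjusted p under 0.05 was found for 0 of the 10 and for 3.1% of all genes. Ctsb was at 582.2, 580.0, 571.4 and 561.4 CPM in GWCBD30 brains, against 596.7, 583.1 and 595.4 CPM in CtrlVeh brains. It was thus lower in every GWCBD30 brain than in any CtrlVeh brain, as were 2.73% of all genes, with a log2 fold change of -0.04 ± 0.06 (adjusted p = 0.9998). Under LPS 0 passed (background 0.0699%), and 1 of the 10 had an unadjusted p under 0.05, against 6.23% of all genes. Ctsl had -0.17 ± 0.07 (adjusted p = 0.715). Ctsl was at 70.8, 79.0, 74.5 and 75.7 CPM in GWCBD30LPS brains, against 86.4, 84.1 and 82.1 CPM in CtrlVehLPS brains, and the groups did not overlap (3.65% of all genes were lower in this way). DESeq2 and limma voom called 0 of the 10 in either comparison.

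Whether the LPS response differed between arms was tested as an interaction. Between exposed CBD and exposed vehicle mice the Ctsc response differed by -1.08 ± 0.22 on the log2 scale (95% interval -1.53 to -0.63, adjusted p = 0.0513), which did not pass, while 0.0449% of all genes did. It passed with DESeq2 (adjusted p = 0.0118), limma voom (0.0345), bulb and cerebellar covariates (0.0204), no filter on low counts (0.000437) and without GWVehLPS replicate 4, GWCBD30LPS replicate 2, CtrlVehLPS replicate 1 or CtrlVehLPS replicate 3 (adjusted p between 0.0261 and 0.0494). Over all alternatives its adjusted p lay between 0.000437 and 0.251. The CBD value of Ctsc was -0.62 ± 0.15 under LPS and 0.46 ± 0.16 without LPS, and both enter this difference. Ctsh had -0.75 ± 0.19 (adjusted p = 0.268), Cd68 -0.36 ± 0.22 (adjusted p = 0.923), Ctsz -0.22 ± 0.11 (adjusted p = 0.878) and Ctsl -0.21 ± 0.09 (adjusted p = 0.850). For Ctsb and Lamp1 the differences were 0.01 ± 0.08 (95% interval -0.15 to 0.17) and 0.03 ± 0.09 (-0.15 to 0.21), so a difference of the size seen for Ctsc lay outside both intervals.

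Between exposed vehicle mice and controls the LPS responses had 10 positive differences (7 without GWVehLPS replicate 2, where Ctsb, Ctsd and Lamp1 were at -0.04, -0.02 and -0.02). With limma voom Ctsb, Ctsd and Lamp1 were at -0.01, -0.01 and -0.03. Ctsd was also below 0 with bulb and cerebellar covariates (-0.07) and without GWVeh replicate 4 (-0.01). Of the 10, 0 passed (background 0%, 0 with DESeq2 or limma voom). An unadjusted p under 0.05 was found for 3 of the 10 and for 8.43% of all genes. Cd68 had 0.61 ± 0.24 (adjusted p = 0.484), Ctsc 0.53 ± 0.24 (adjusted p = 0.572) and Ctsh 0.51 ± 0.20 (adjusted p = 0.497). The other 7 lay between 0.03 and 0.20. Without CtrlVehLPS replicate 1 the differences of Cd68, Ctsc and Ctsh were 0.60, 0.46 and 0.42. The comparisons of LPS, exposure and CBD share brains, GWVehLPS above all, so they are not independent of each other.

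Most markers of microglia also rose with LPS. Of 12 microglia markers, 9 rose in the mean of the 3 arms, with a median of 0.50; Olfml3 (0.74 ± 0.07, adjusted p = 1.20e-08), Csf1r (0.59 ± 0.05, adjusted p = 5.01e-09) and Cx3cr1 (0.52 ± 0.06, adjusted p = 7.48e-07) were among them, and Trem2, P2ry12 and Gpr34 did not pass. Their summed level was 221 to 259 CPM in GWCBD30LPS brains, against 190 to 216 CPM in GWCBD30 brains. It was 258 to 342 CPM in GWVehLPS brains, against 183 to 212 CPM in GWVeh brains, and 289 to 296 CPM in CtrlVehLPS brains, against 184 to 193 CPM in CtrlVeh brains. The sums did not overlap between LPS and PBS in any arm, and no marker was at 0 in any library.

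In exposed vehicle mice 8 of the 12 markers rose (median 0.60), in controls 7 (0.68) and in the CBD arm 0 (0.28). The medians of the 10 genes in these arms were 0.23, 0.12 and 0.13. Under LPS 3 of the microglia markers (Olfml3, Fcrls and Tmem119) were lower with CBD. Their part in the cathepsin results was not tested. Markers of monocytes and neutrophils summed to 0.943 to 19.2 CPM, with up to 4 of 9 at 0 in a library, and none of the 5 that could be tested passed under LPS. Red blood cell markers summed to 229 to 356 CPM in GWCBD30LPS brains and to 115 to 221 CPM in GWVehLPS brains, and their part was not tested. Endothelial and mural markers (6 genes, none at 0) summed to 109 to 118 CPM in GWCBD30LPS brains and 124 to 137 CPM in GWVehLPS brains, with no overlap, and to 118 to 119 CPM in CtrlVehLPS brains. Of them Pecam1 (-0.82 ± 0.14, adjusted p = 0.00129) and Cldn5 (-0.59 ± 0.12, adjusted p = 0.0132), both of endothelial junctions, were lower with CBD under LPS, and the part of these cells in the results was not tested. Border macrophage markers summed to 7.33 to 9.72 CPM in GWCBD30LPS brains. The sums were higher in GWVehLPS (10.8 to 15.6 CPM) and GWCBD30 brains (10.1 to 12.8 CPM), without overlap. Astrocyte markers summed to 3319 to 3708.5 CPM in GWCBD30LPS brains, above 3018 to 3293 CPM in GWCBD30 brains. Oligodendrocyte markers did likewise (5895 to 6781 against 4750 to 5503 CPM). Both sums overlapped between LPS and PBS in the other arms. The part of these cells was not tested either.

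The 10 genes varied together to different degrees. Over the 22 libraries the 45 pairs had Pearson correlations of log2 CPM between -0.02 and 0.90, with a median of 0.59, which was 0.38 within groups. Ctsb and Ctsd (0.90), Ctsb and Lamp1 (0.87), Ctsa and Ctsz (0.86), Ctsd and Ctsz (0.86), Ctsa and Ctsd (0.84) and Ctsc and Ctsh (0.84) were the closest pairs, and Lamp2 had the lowest values, -0.02 with Ctsz and 0.06 with Ctsa. Within groups the value was 0.77 for Ctsb and Ctsd and 0.39 for Ctsc and Ctsh. All these values share libraries and depth and are descriptions.

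Outside the family, the genes most like each cathepsin that passed were taken by the highest Pearson correlation over the 22 libraries. For Ctsc these were Fam111a (0.91), the leukocyte integrin subunit Itgb2 (0.87) and the leukocyte actin-bundling protein Lcp1 (0.87). For Ctsh they were B2m, the light chain of MHC class I (0.85), the complement subunit C1qa (0.84) and the microglial gene Olfml3 (0.84), and within groups these values lay between 0.49 and 0.53. Ctsz was most like Grn, the lysosomal progranulin precursor (0.89), Laptm5, a lysosomal membrane protein of leukocytes (0.89), and Ndrg2 (0.88). Ctsd was most like the ferritin heavy chain Fth1 (0.93), Sparc (0.92) and Ndrg2 (0.92), and Ctsb like Mlc1 (0.93), Rcan2 (0.93) and the cathepsin inhibitor Cst3 (0.92). Within groups the values lay between 0.65 and 0.87 for Ctsc and between 0.70 and 0.81 for Ctsz. They lay between 0.80 and 0.86 for Ctsd and between 0.80 and 0.91 for Ctsb. The cells behind these likenesses were not tested.

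A wider set of 109 lysosomal genes, chosen by role, was counted for comparison. Of the 106 tested, 9 rose with LPS in the mean of the arms and 0 fell, which is 8.49% against 3.52% of all genes, with a median of 0.03. Among the 6 tested genes for further cathepsins and the related protease legumain, Ctss, a cysteine cathepsin of antigen-presenting cells, rose (0.64 ± 0.06, adjusted p = 5.01e-09), as did Lgmn (0.19 ± 0.04, adjusted p = 0.00484), while Ctsw had -0.97 ± 0.30 (adjusted p = 0.0637). Of 6 cathepsin inhibitors 1 rose, Serpina3n, a secreted serpin of reactive astrocytes (0.55 ± 0.11, adjusted p = 0.00564), and Cst3 had 0.21 ± 0.07 (adjusted p = 0.118) and Cst6 0.24 ± 0.13 (adjusted p = 0.312).

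Of 20 other lysosomal membrane proteins 2 rose, Laptm5 (0.69 ± 0.08, adjusted p = 6.07e-06) and Lamp5, a relative found in neurons (0.19 ± 0.05, adjusted p = 0.0217), and Laptm4a had 0.10 ± 0.04 (adjusted p = 0.129). Of 32 soluble hydrolases and cofactors 4 rose, among them Grn (0.25 ± 0.06, adjusted p = 0.00754), Gm2a, the GM2 activator (0.19 ± 0.05, adjusted p = 0.0138), and Lipa, the lysosomal acid lipase (0.20 ± 0.05, adjusted p = 0.0160). None of the 18 subunits of the vacuolar ATPase that acidifies the lysosome passed, with values from -0.06 to 0.09; those of smallest p were Atp6v0e2 (0.09 ± 0.04, adjusted p = 0.152), Atp6v0a2 (0.07 ± 0.04, adjusted p = 0.317) and Atp6v0c (0.06 ± 0.03, adjusted p = 0.337). None of 13 genes of enzyme sorting passed, the receptors Igf2r and Sorl1 included (-0.09 ± 0.05 and -0.09 ± 0.04, adjusted p = 0.305 for both), nor the adaptor Gga1 (0.07 ± 0.04, adjusted p = 0.436). None of 11 regulators passed: Tfeb itself had 0.16 ± 0.08 (adjusted p = 0.283), the autophagy repressor Zkscan3 -0.09 ± 0.05 (adjusted p = 0.342) and Lamtor1, a subunit of the Ragulator complex, 0.08 ± 0.05 (adjusted p = 0.374). Ctss and Laptm5 also rose in exposed vehicle mice (0.99 ± 0.09 and 0.68 ± 0.12) and in controls (0.53 ± 0.11 and 0.83 ± 0.14), and 3 of the 106 passed in each of these arms. In the CBD arm 0 of the 106 passed, and under LPS Ctss was lower with CBD (-0.46 ± 0.09, adjusted p = 0.0125), the 1 call among the 106.

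**Figure D5:**
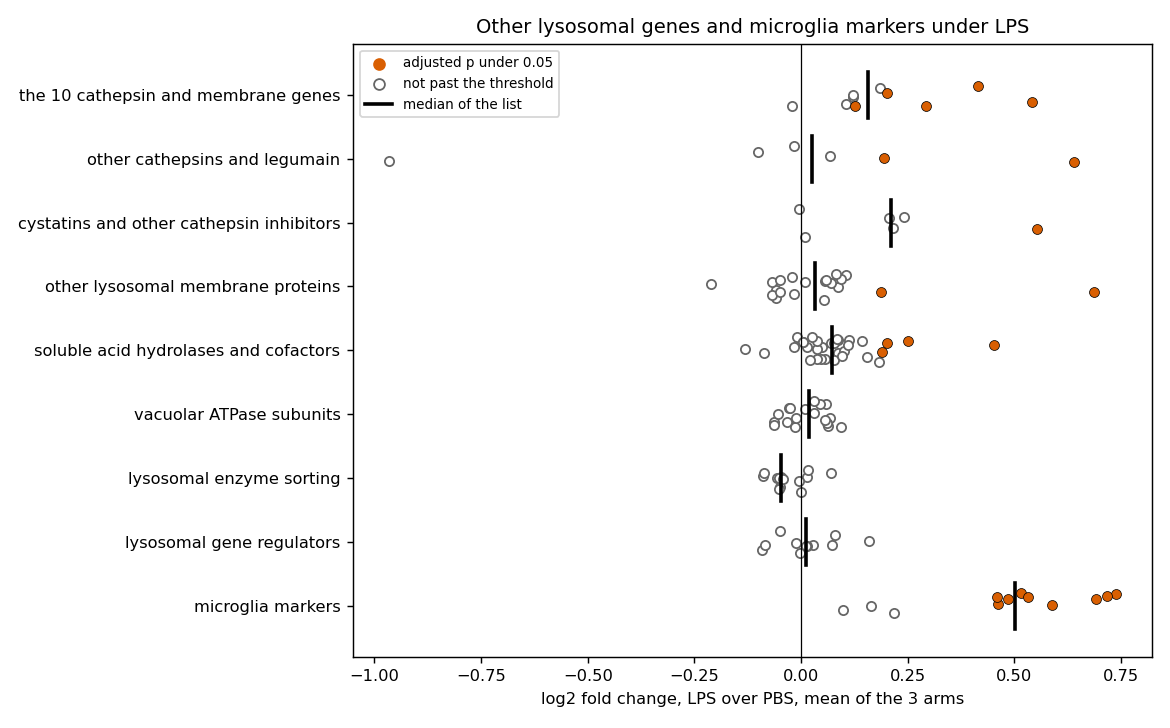
Log2 fold change of LPS over PBS in the mean of the 3 arms for the 10 genes, 7 lists of other lysosomal genes and 12 microglia markers; each point is a gene, filled where adjusted p is under 0.05, and black bars are list medians. The medians are 0.16 for the 10 genes and 0.50 for the microglia markers, and no vacuolar ATPase, sorting or regulator gene is filled.

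On GRCm38 several of the genes share exonic bases with a neighbour, and whether counting used the strand is not given in the sources used here. Ctsa (chr2:164832873-164841032) shares 495 bases, 10.5% of its exons, with Pltp on the opposite strand, and Ctsb (chr14:63122462-63145923) shares 774 bases, 12.8%, with Fdft1 on the opposite strand. Ctsz (chr2:174427493-174439039) shares 10 bases with Nelfcd, Lamp1 shares 249 bases (9.31%) with Grtp1 on the opposite strand, and Ctsa a further 324 bases (6.87%) with Neurl2. Ctsd shares 808 bases (34.4%) with Gm49369 on the same strand, and Ctsl 1742 bases (26.8%) with Gm47123 on the opposite strand and 395 with the pseudogene Gm49230 on the same strand. These 3 genes are listed with 0 counts in every library, and how reads in the shared bases were assigned is not given in the sources used here. Their values are uncertain to that extent, and Pltp, Fdft1 and Nelfcd had log2 fold changes of -0.03 ± 0.11, -0.05 ± 0.04 and 0.08 ± 0.04 in the mean of the arms, none past the threshold. Pltp, whose counts were 49.7% of those of Ctsa, had 0.42 ± 0.20 for exposure under LPS (adjusted p = 0.661), where Ctsa had 0.15 ± 0.07 (adjusted p = 0.620). Ctsc (chr7:88278085-88310888) and Ctsh (chr9:90054152-90076089) share no exonic base with another gene.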

How the data were processed

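Whole-brain RNA from 22 mice was sequenced as poly(A)-enriched stranded libraries and aligned to GRCm38/mm10, per the labels' protocols. The table deposited by the authors holds whole-number read counts per gene and library, not normalized. How reads were aligned, counted per gene and assigned to strands, and with which annotation release, is not given in the sources used here. Groups and replicate numbers came from the sample labels, each column matched 1 library, and 0 columns belonged to other samples.

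The count test was edgeR 4.0.16 (R 4.3.3). The filter filterByExpr left 20026 of 56748 genes, libraries were scaled by TMM, and a robust quasi-likelihood model of 6 group means was fitted to all 22 libraries (16 residual degrees of freedom, common coefficient of variation 0.103). A total of 12 contrasts were tested, two-sided, with Benjamini-Hochberg adjustment over 20026 genes and a threshold of 0.05. The standard error is the log2 fold change divided by the square root of F. CPM values use TMM-scaled library sizes, and correlations use log2 CPM with a prior count of 2. Gene coordinates and exon lengths (the union of all annotated exons of a gene) are from GENCODE for GRCm38, and promoter sequences from RefSeq for GRCm38.p6. Depth was 17.2 to 31.2 M counts per library, and counts are reads, not molecules.

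Alternatives were RLE and upper-quartile scaling, no filter, a stricter filter (1 CPM or more in 3 libraries), DESeq2 1.42.0, voom with quality weights in limma 3.58.1, the groups of a contrast alone, a replicate block, olfactory bulb and cerebellar marker scores as covariates, and leaving out each library. The procedure was tested on simulated data in which changes with LPS were equal in all arms. Interactions, and changes as small as that of Ctsb, were not simulated. All 10 genes were tested in every contrast. Where a contrast does not give all 10 values, the genes named were picked with their values known. The rule for other genes took the 3 of smallest p in the mean LPS response from each list of lysosomal genes. It also took the 3 genes most correlated with each of the 10 that passed there. One gene that this rule takes is not reported here. Lipa and the microglia markers were named after their values were seen. The 10 genes and the lists were chosen with earlier results of these data known.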

Additional observations from a re-analysis of the deposited data

Results flagged for a closer look

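In 3 of the 40 sets of 4 brains (10 genes in 4 groups), 1 brain lay far from the others by Dixon's test, where chance gives about 1 in 20. Ctsa was at 94.2 CPM in GWCBD30LPS replicate 2, below the 99.6 to 100.3 CPM of the other GWCBD30LPS brains. Ctsb was at 772 CPM in GWVehLPS replicate 2, above the 638 to 655 CPM of the other GWVehLPS brains, and the same brain had the highest Ctsa, Ctsd, Ctsh, Ctsl, Ctsz, Lamp1 and Lamp2 of its group. Ctsz was at 31.2 CPM in GWCBD30 replicate 4, below the 36.7 to 37.5 CPM of the other GWCBD30 brains. Groups of 3 were not examined.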

How the results depend on the processing

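Of the 10 genes, 5 passed in the mean LPS response, 3 with bulb and cerebellar covariates and 4 to 6 when a library was left out. In exposed vehicle mice 3 passed, 5 with no filter on low counts, and 3 without any library. For CBD under LPS 0 passed, against 2 with no filter, 1 with covariates, 1 with DESeq2, 2 with voom and 0 to 2 without a library. For the difference in LPS response between CBD and vehicle 0 passed, against 1 (Ctsc) with no filter, covariates, DESeq2, voom or a replicate block and 0 to 1 without a library. In the other 8 contrasts the count was 0 under every alternative that was run. Of the 120 values (10 genes in 12 contrasts), the 43 with an unadjusted p under 0.05 kept their sign under the alternatives, in which 7 calls were lost and 23 gained. Over all 120 the sign changed 98 times, in 28 values of at most 0.08 in size, 3 of the times under scaling. The causes were not tested.

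Over all genes, the count past the threshold in the mean LPS response was 705, and 375 to 1429 under the alternatives. It was 99 (20 to 644) in controls, 188 (125 to 359) in exposed vehicle mice, 1 (0 to 64) in CBD mice, 48 (22 to 140) for CBD under LPS and 9 (2 to 37) for its interaction. It was 0 (0 to 84) for exposure without LPS, 1 (0 to 118) for exposure under LPS, 0 (0 to 82) for its interaction, 0 for CBD without LPS in every alternative, and 0 (0 to 1) and 14 (0 to 198) for exposed CBD mice against controls without and under LPS. Scaling moved the median of all genes by at most 0.0134.

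Same-numbered libraries of different groups had a median correlation of 0.00917 in their deviations from group means (51 pairs, 1 over 0.1). Libraries of different numbers had a median of -0.0014 (150 pairs, 2 over 0.1). For 10 of 22 libraries the best match had their own number, a larger share than that of same-numbered pairs among all pairs. These values do not settle whether the numbers pair brains. The labels name no pairs, so the main model had no replicate block, and a block was run as an alternative. With the replicate block the Ctsc interaction was -1.10 (adjusted p = 0.0262) and Ctsl passed in the mean LPS response. The lowest count behind a value of the 10 genes was 85, in 1 library.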
